A study of Mus musculus with 369 samples.

Results

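The genes described here are 8 complement genes and complement receptors in single microglia, the resident macrophages of the brain. They are the chains of the recognition protein C1q (C1qa, C1qb and C1qc), the central component C3, the receptors of the C3a and C5a fragments (C3ar1 and C5ar1), and the subunits of complement receptor 3 (Itgam and Itgb2). They were taken by name as a functional group, and all 8 were found among the 23337 genes of the count table. The cells came from whole brains of male mice of the C57BL/6J strain at postnatal day 7, either wild type or Trem2 knockout. Trem2 is a lipid-binding surface receptor of microglia. All cells were sorted as CD45 low and CD11b positive, and those sorted with no further marker are called ungated. Gated cells of each genotype were sorted for surface Gpnmb and Clec7a as well, proteins of a microglial state known for engulfing debris in the early postnatal brain. The quality criteria left 334 cells and removed 35: 78 ungated and 90 gated cells of the wild type, and 90 ungated and 76 gated cells of the knockout.

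Each group filled 1 plate and the labels name no animal. A group is therefore 1 sample, effects of plate, genotype and gate cannot be told apart, and no difference between groups was tested. Levels are CPM, the counts summed over a group's cells and scaled to 1000000 gene counts, and differences are log2 ratios of CPM + 1. The exact 95% intervals reflect counting alone, since they treat each read or cell as independent and each group is 1 sample. Smart-seq2, a plate method with 1 cell per well, adds no molecular identifiers to its amplified reads, which are therefore not independent. Intervals of levels are thus too narrow even for counting. Whether intervals of 2 groups overlap is no comparison of genotypes or gates. Passing cells held 157653 to 1051282 gene counts. Where 4 values follow each other below without names, they are those of the ungated and gated wild type and then of the ungated and gated knockout. Detected genes had medians of 2607.5, 3162.5, 2184 and 3995 per cell. Trem2 itself was at 1115 CPM, 1604 CPM, 229 CPM and 413 CPM, lower in both knockout groups but not absent. The labels do not say which part of the gene was deleted. Defining microglia markers were present in every group: their summed level was 48538, 33403, 48718 and 25221 CPM, and all 10 were measured. Of these markers 3 were at least 2-fold lower in gated than ungated wild-type cells and 6 in those of the knockout.

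Complement is a cascade of secreted proteins that tags targets for removal. C1q binds a target and starts the classical pathway, in which the proteases C1r and C1s cleave C4 and C2 into the enzyme that splits C3. A fragment of C3 stays on the target and is bound by complement receptor 3, the pair of Itgam and Itgb2, while the small fragments C3a and C5a signal through C3ar1 and C5ar1. In the developing brain, C1q, C3 and complement receptor 3 are known for the engulfment of synapses by microglia.

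The C1q genes lie side by side on chromosome 4, and the stretches before their starts are shown because the C1q genes had the highest levels of the members in every group. In the mm10 build C1qb spans 136880129 to 136886187, C1qc 136889804 to 136893065 and C1qa 136895917 to 136898803, all on the minus strand. The 3 genes fill 18675 bases, with 3616 and 2851 bases between neighbours and 0 other annotated genes between them. RefSeq promoter sequences (GRCm38.p6, the same build) were matched for 6 of the 8 members, and the 250 bases before each RefSeq start were searched. The stretch of C1qb is chr4:136886201-136886450 and that of C1qc is chr4:136893066-136893164. C3ar1, the receptor gene that was higher in gated cells of both genotypes, is shown beside them for contrast and comes from chr6:122856162-122856407. The stretches of C1qc and C3ar1 are shortened where an annotated exon begins. All are given 5′ to 3′ along the gene, on the minus strand of the build, with motif matches in capitals.
C1qb: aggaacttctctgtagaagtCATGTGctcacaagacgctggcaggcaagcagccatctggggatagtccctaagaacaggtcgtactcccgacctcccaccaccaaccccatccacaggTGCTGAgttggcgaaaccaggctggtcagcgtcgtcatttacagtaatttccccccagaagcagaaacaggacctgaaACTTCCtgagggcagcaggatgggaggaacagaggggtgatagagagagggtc
C1qc: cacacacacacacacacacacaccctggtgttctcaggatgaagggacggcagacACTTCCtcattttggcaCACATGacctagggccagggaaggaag
C3ar1: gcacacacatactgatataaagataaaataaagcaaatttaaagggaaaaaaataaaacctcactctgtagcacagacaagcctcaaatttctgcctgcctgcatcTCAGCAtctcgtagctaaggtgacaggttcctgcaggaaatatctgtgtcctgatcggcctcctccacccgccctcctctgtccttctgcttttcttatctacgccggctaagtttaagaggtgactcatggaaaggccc

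Both C1q stretches hold 1 match of GGAAGT, the core bound by the myeloid factor PU.1, read as ACTTCC on the printed strand. It lies at bases 198 to 203 for C1qb and 56 to 61 for C1qc. Both also hold CATGTG, an E-box of the kind bound by MiT/TFE factors, at bases 21 to 26 and, on the other strand, 73 to 78. TGCTGA, the core of the MAF motif, was found at bases 120 to 125 of the C1qb stretch and, on the other strand, at bases 107 to 112 of C3ar1. C5ar1 had 2 matches of GGAAGT and 1 of TGCTGA, C3 had 1 of TGCTGA, and Itgam had none of the motifs. The C5ar1 stretch, chr7:16259339-16259588, reaches into the GENCODE model of the gene, which begins at 16259540 on the minus strand. All matches of C5ar1 lie inside that model. Both strands were searched, and no match overlapped another. Of 32851 RefSeq promoters over the same window, 19.7% hold GGAAGT, 16.1% TGCTGA and 12.3% CATGTG. The palindromic E-box CACGTG (6.02% of promoters) was found in none of the 6. Matches to such short motifs are a description of the sequence and say nothing about binding.

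C1q RNA was high in nearly every microglial cell of all 4 groups. In the wild type summed C1qa was at 3386 CPM in ungated and 3021 CPM in gated cells, and in the knockout at 3297 CPM and 2379 CPM. C1qb was at 5652 CPM, 5221 CPM, 5139 CPM and 4449 CPM. C1qc was at 4489 CPM, 4248 CPM, 4253 CPM and 3789 CPM. Each chain was thus lowest in gated knockout cells and highest in ungated wild-type cells, by at most 1.42-fold for C1qa, and the cells of the groups overlapped broadly. Single wild-type cells spanned 1353 to 5404 CPM of C1qa when ungated (median 3369) and 0 to 5818 CPM when gated (median 3011). Single knockout cells spanned 0 to 7856 CPM (median 3143) and 961 to 4766 CPM (median 2299).

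**Figure D1:**
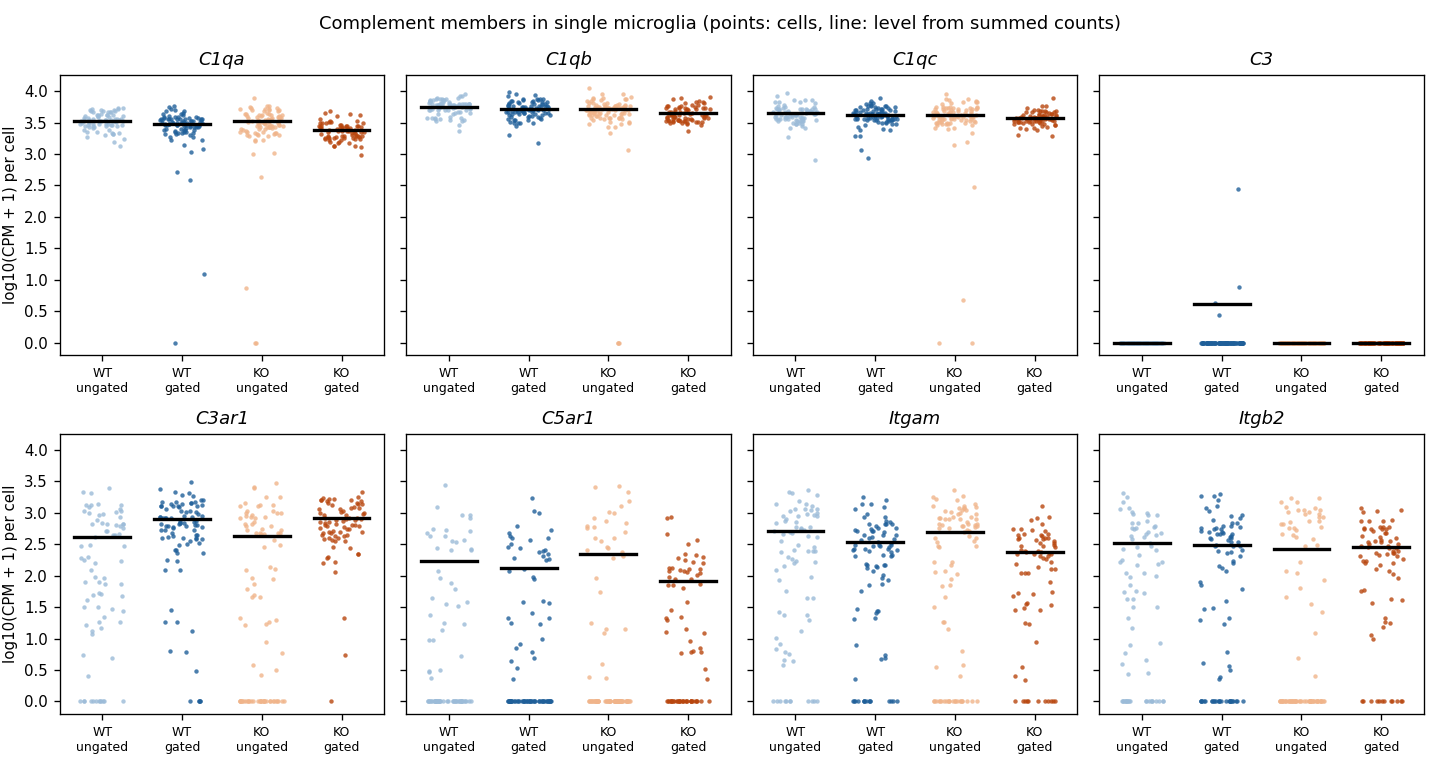
Level of the 8 members in each passing cell as log10(CPM + 1), by group (WT, wild type; KO, Trem2 knockout). Points are cells and lines are levels from summed counts. The C1q genes form tight bands near their group levels, while C3ar1, C5ar1, Itgam and Itgb2 spread from 0 to above 1000 CPM in most groups, and C3 is at 0 in all but 4 cells.

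The gate difference of C1qa was -0.16 (log2) in wild-type cells and -0.47 in knockout cells, and the genotype difference was -0.04 in ungated and -0.34 in gated cells. For C1qb the gate differences were -0.11 and -0.21, and the genotype differences -0.14 and -0.23. For C1qc they were -0.08 and -0.17 for the gate and -0.08 and -0.17 for the genotype. All of these values were below 0 and none reached 2-fold. The directions depended on scaling: TMM factors turned C1qb and C1qc in both gate comparisons and C1qa in wild-type cells to values above 0, of at most 0.11. Scaling on the added spike-in RNA, which keeps differences in RNA content between cells, gave 0.30 to 0.39 for the gate in wild-type and 0.87 to 1.17 in knockout cells, where the median of all genes moved to 0.29 and 0.99. This scaling shifts all abundant genes of a group by nearly the same amount. The move is therefore set by the scaling and is no result about the C1q genes.

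C1qb and C1qc were among the most even of the abundant genes. Among 106 genes at 1000 CPM or more in at least 1 group, C1qc had a largest difference over the 4 comparisons of 0.17 (log2), and 1 gene had a smaller one. For C1qb it was 0.23, with 6 genes smaller, and for C1qa it was 0.47, with 25 genes smaller, beside a median of 0.77 over the 106 genes. Cells of a group also varied little: the coefficient of variation of CPM over cells was 0.238 to 0.427 for the chains, and the median over the 106 genes was 0.460 to 0.756. The 106 include genes that reached 1000 CPM only where they were high, such as Gpnmb (85.2 CPM in ungated and 4233 CPM in gated knockout cells). Such genes raise these medians, whereas the C1q genes were above 1000 CPM in every group. Whether the C1q genes are more even than genes of like level was not tested.

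The chains kept a stable proportion. C1qb made up 41.8%, 41.8%, 40.5% and 41.9% of the summed C1q counts, and C1qa 25%, 24.2%, 26% and 22.4%. C1qc made up 33.2%, 34%, 33.5% and 35.7%, more than C1qa in every group. Corrected for exon length, C1qb was highest (4089 to 5195 CPM per kb over the groups), then C1qa (2288 to 3256), then C1qc (1962 to 2325). The place of C1qc in this order rests on its annotated exon length, 1931 bases against 1088 for C1qb and 1040 for C1qa. The 2.08- to 2.23-fold gap per kb between C1qb and C1qc comes in part from these lengths. The C1q protein holds its chains in equal numbers, but protein was not measured here. Together the chains took 1.35%, 1.25%, 1.27% and 1.06% of all gene counts.

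**Figure D2:**
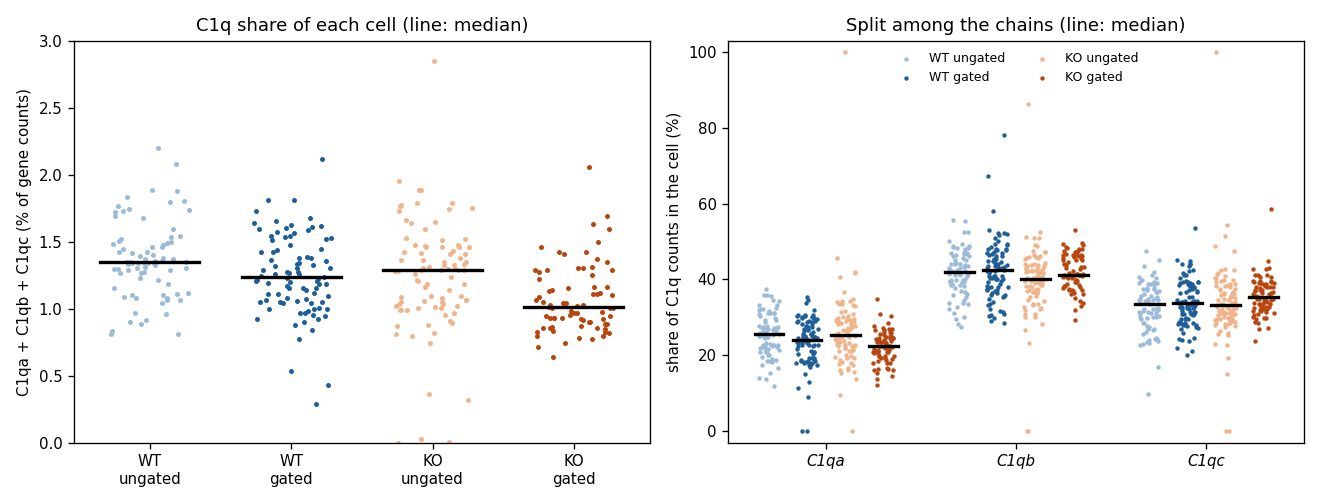
Left, share of the gene counts of each cell that came from C1qa, C1qb and C1qc together. Right, split of these counts among the chains (percent of the C1q counts of the cell). Points are cells and lines are medians by group; the median share of a cell was 1.34%, 1.23%, 1.29% and 1.01% from left to right, and the split was alike in all groups except for a few cells.

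All 3 chains had counts in 78 of 78, 89 of 90, 87 of 90 and 76 of 76 cells. The 4 exceptions held 405 to 1149 detected genes, far below their group medians, and 2.80 to 8.13 gene counts per spike-in count. An ungated knockout cell had no C1q count and no count of any of the 10 microglia markers. The other 3 had counts of 3 to 6 of these markers. Across cells the chains were weakly to moderately correlated: without the 4 exceptions, Pearson's r of log2(CPM + 1) was 0.20 to 0.39 (78 cells), 0.24 to 0.51 (89 cells), 0.41 to 0.57 (87 cells) and 0.51 to 0.63 (76 cells). With them r in the ungated knockout was 0.81 to 0.96, while Spearman's rho was 0.39 to 0.57. The cells of a group share a plate, and each pair shares the depth of its cell.

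The genes whose pattern over cells was most like that of the mean C1q level were Lgmn (r = 0.82), Ctss (0.79), Csf1r (0.74), Grn (0.73) and Lamp1 (0.72), over 334 cells with group means subtracted and among 1470 widely detected genes. Within single groups r was -0.05 to 0.98 for Lgmn, 0.22 to 0.90 for Ctss and -0.10 to 0.82 for Csf1r. It was 0.15 to 0.85 for Grn and 0.15 to 0.87 for Lamp1. The likeness of Lgmn and Csf1r was thus not shared by every group. Lgmn and Ctss encode lysosomal proteases, and Csf1r is the receptor on which microglia depend for survival. The pooled values rested in part on the 4 exceptions: over the other 330 cells they were 0.37, 0.61, 0.58, 0.36 and 0.36. Ctss and Csf1r then ranked 1 and 2, and Cst3 (0.53), Unc93b1 (0.50) and Laptm5 (0.49) came next. For the receptors and integrins no gene reached more than r = 0.35 (Ifngr1 with Itgam), which in such sparse counts is no finding.

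C3 RNA was near 0 at this depth. It had 169 counts (3.14 CPM, interval 2.69 to 3.66) in gated wild-type cells and 0 in the other 3 groups, under the level of 5 CPM from which a gene is called measured here. A count was held by 4 of 90 gated wild-type cells, and 95.3% of the counts came from 1 cell at 273 CPM. That cell also had P2ry12, a microglia marker, at 582 CPM, and counts of 1 of 8 markers of border-associated macrophages, the macrophages of the meninges and vessels. A count of 0 allows a share of cells with a C3 count of up to 3.85% in the ungated wild type, 3.33% in the ungated knockout and 3.95% in the gated knockout (Clopper-Pearson bounds 4.62%, 4.02% and 4.74%). These limits hold for cells with a count at this depth and not for cells that express C3.

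C3ar1, the receptor of C3a, was higher in gated cells of both genotypes. Its summed level was 417.6 CPM in ungated and 800.3 CPM in gated wild-type cells, a difference of 0.94 (log2; 1.92-fold, counting interval 0.91 to 0.96). In knockout cells it was 433.6 CPM in ungated and 817 CPM in gated cells, a difference of 0.91 (1.88-fold, 0.89 to 0.94). Both lay just under the 2-fold used as the size rule. The gate differences of the genotypes differed by -0.02, and the genotype differences were 0.05 in ungated and 0.03 in gated cells.

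The 2 ungated groups had nearly the same summed C3ar1 level but not the same spread over cells. Ungated cells ranged from 0 to 2440 CPM in the wild type (median 165) and from 0 to 2977 CPM in the knockout (median 54.5). Gated cells ranged from 0 to 3096 CPM (median 657) and from 0 to 2183 CPM (median 679.6), so all groups overlapped. After thinning each cell to 100000 gene counts, C3ar1 was detected in 82.1% (71.7 to 89.8) of ungated and 91.1% (83.2 to 96.1) of gated wild-type cells, and in 57.8% (46.9 to 68.1) of ungated and 97.4% (90.8 to 99.7) of gated knockout cells. Without thinning the shares were 84.6%, 94.4%, 64.4% and 98.7%. Among ungated cells with a count, the median was 504.6 CPM in the knockout and 297.6 CPM in the wild type. The ungated knockout was also the group with the fewest detected genes. Among cells with 2000 to 4000 detected genes the shares were 78.4%, 90.4%, 66.7% and 100%, and the intervals of the ungated groups then overlapped (61.8 to 90.2 and 50.5 to 80.4). These 2 intervals rest on 37 and 42 cells, and fewer cells also widen them.

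**Figure D3:**
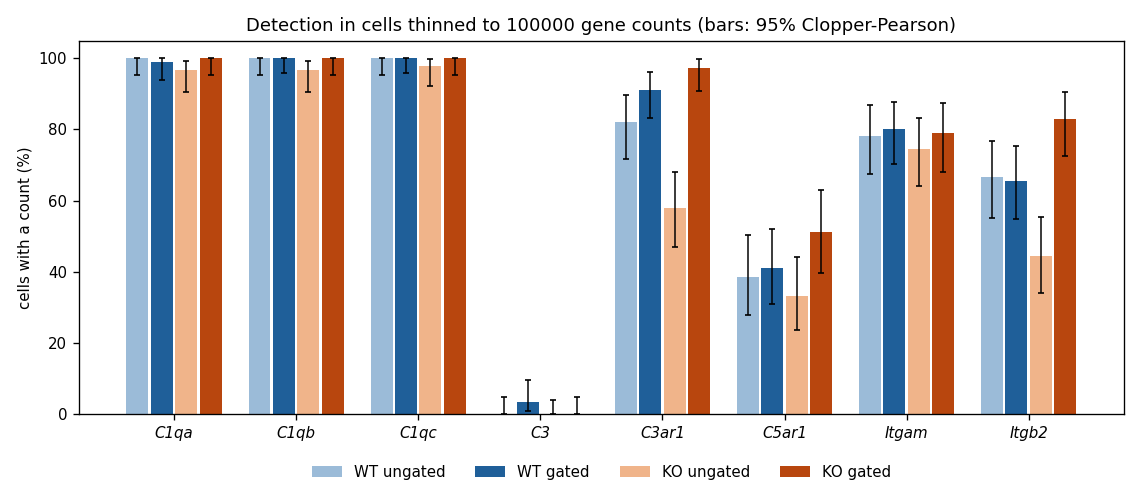
Percent of passing cells with at least 1 count of each member after thinning to 100000 gene counts, by group, with 95% Clopper-Pearson intervals as bars. The C1q genes are at 96.7% or more in every group, C3 is at 3.33% or less, and the ungated knockout is the lowest group for C3ar1 (57.8%) and Itgb2 (44.4%).

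Most markers of border-associated macrophages were higher in gated cells. Their summed level was 843, 1978, 902 and 2031 CPM, and 7 of 8 were at least 2-fold higher in gated cells of each genotype. Of all measured genes 15.2% were so in wild-type and 12.4% in knockout cells. The exception was Mrc1, at 343.6, 455.2, 441.6 and 303.3 CPM, which was lower in gated than ungated knockout cells. Most of the summed level was Stab1 (409 to 1175 CPM) and Mrc1, while Lyve1, F13a1 and Cd163 were at 0 in ungated wild-type cells. Counts of 3 or more of these markers occurred in 10, 33, 15 and 56 cells. Without those cells the C3ar1 gate difference was 0.93 in wild-type and 0.38 in knockout cells, where 20 gated cells remained, at 527 CPM against 405 CPM. The part of these cells in the other results was not tested beyond the values given with them.

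C5ar1, the receptor of C5a, was lower in gated knockout cells by level, but not by share of cells. It was at 170.0 CPM in ungated and 130.0 CPM in gated wild-type cells, and at 222 CPM and 80 CPM in those of the knockout. The gate difference was -0.38 in wild-type cells and -1.46 in knockout cells (2.78-fold lower), which passed the 2-fold rule. The wild-type difference turned to 0.17 without border-associated macrophage marker cells (169 against 151 CPM) and to 0.08 with spike-in scaling. The genotype difference was 0.38 in ungated and -0.69 in gated cells, and the first turned to -0.27 in cells with 2000 to 4000 detected genes. Single cells ranged from 0 to 2755 CPM, 0 to 1715 CPM, 0 to 2717 CPM and 0 to 861 CPM, with medians of 0, 0, 0 and 7.21 CPM. The highest cell alone gave 31.6%, 18.7%, 18.4% and 16.2% of the group's counts.

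Thinned cells with a C5ar1 count were 38.5% (27.7 to 50.2), 41.1% (30.8 to 52), 33.3% (23.7 to 44.1) and 51.3% (39.6 to 63), against 47.4%, 45.6%, 36.7% and 59.2% without thinning. The intervals overlapped in every pair of groups. Among knockout cells with a count the median was 351 CPM in ungated and 96.1 CPM in gated cells. Gated knockout cells thus had the highest share with some C5ar1 RNA and the lowest level of it, whereas part of the ungated knockout cells held much. The knockout gate difference was -0.81 in cells with 2000 to 4000 detected genes and -0.14 with spike-in scaling, both short of 2-fold. Medians over cells gave 3.04, the other direction, because the median of ungated knockout cells was 0.

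Cells with C5ar1 were mostly cells with C3ar1, which was itself detected in 82.1%, 91.1%, 57.8% and 97.4% of all thinned cells. Pearson's r between the receptors in thinned cells was low, at 0.17, 0.22, 0.27 and 0.07. After thinning, both receptors were detected in 27, 37, 23 and 38 cells. C5ar1 without C3ar1 was seen in 3, 0, 7 and 1 cells, and C3ar1 without C5ar1 in 37, 45, 29 and 36 cells. Neither was detected in 11, 8, 31 and 1 cells. C5ar2, the receptor of C5a that does not couple to G proteins, lies next to C5ar1 on chromosome 7. It was at 38.4 CPM, 29 CPM, 73.6 CPM and 34.4 CPM, and its gate difference was -0.39 in wild-type and -1.08 in knockout cells, lower like that of C5ar1 in both, but 0.06 and 0.23 with spike-in scaling.

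Itgam encodes CD11b, the protein every cell was sorted on, and its RNA was lower in gated cells. Ungated and gated wild-type cells were at 512 and 337 CPM, and those of the knockout at 504 and 236 CPM. The gate difference was -0.60 in wild-type cells and -1.09 in knockout cells (2.14-fold lower), the second past the 2-fold rule. Between genotypes it was -0.02 in ungated and -0.52 in gated cells. With spike-in scaling the knockout gate difference was 0.24, the other direction, and with TMM factors it was -0.82. Single cells ranged from 0 to 2314 CPM, 1785 CPM, 2311 CPM and 1293 CPM, with medians of 249.5, 240.4, 373 and 198 CPM, so the groups overlapped.

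Itgam was detected after thinning in 78.2%, 80%, 74.4% and 78.9% of cells (85.9%, 83.3%, 75.6% and 85.5% without thinning), with intervals that overlapped. The other cells had no count at this depth although all had passed the CD11b gate. Itgam shares its position with Gm49368 on the same strand, and reads of both may have been split or dropped by the counting.

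Itgb2, the common chain of this receptor and of related integrins, was level by sum. It was at 326 CPM, 312 CPM, 269.8 CPM and 290.0 CPM, with gate differences of -0.06 and 0.10 and genotype differences of -0.27 and -0.11. Cells ranged from 0 to 2090 CPM, 2013 CPM, 1753 CPM and 1198 CPM, with medians of 96.1, 163, 0 and 226 CPM. Detection differed more than level: after thinning a count was held by 66.7% (55.1 to 76.9) of ungated and 65.6% (54.8 to 75.3) of gated wild-type cells, and by 44.4% (34 to 55.3) of ungated and 82.9% (72.5 to 90.6) of gated knockout cells. Without thinning the shares were 73.1%, 71.1%, 45.6% and 84.2%. The interval of the ungated knockout lay below that of the gated knockout. In cells with 2000 to 4000 detected genes these 2 shares were 47.6% (32 to 63.6) and 71.4% (53.7 to 85.4), and the intervals overlapped. They rest on 42 and 35 cells, and fewer cells also widen the intervals. Both subunits of the receptor were detected in 43, 49, 32 and 51 cells, that is 55.1%, 54.4%, 35.6% and 67.1%.

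Per kb of exon, the C1q genes lay far above the receptors in every group. In ungated wild-type cells Itgb2 was at 107 CPM per kb, Itgam at 102, C3ar1 at 97.0 and C5ar1 at 66.2. In gated knockout cells the order was C3ar1 at 189.7 CPM per kb, Itgb2 at 95.0, Itgam at 46.9 and C5ar1 at 31.1.

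Counted by the 2-fold rule, 0 of 7 measured members were higher and 0 lower in gated against ungated wild-type cells, where 15.2% of 10554 measured genes were higher and 19.9% lower. Between the knockout gates 0 were higher and 2 lower (C5ar1 and Itgam), beside 12.4% and 22% of all genes. Between genotypes 0 passed in either direction in ungated cells (29.8% of all genes) and likewise in gated cells (23.5%). The median differences of the 7 members were -0.11, -0.21, -0.04 and -0.23 in this order, and those of all measured genes -0.12, -0.26, 0.05 and 0.00. C3ar1 would count as higher in both gate comparisons with TMM factors (1.11 and 1.18). The comparisons share groups pairwise and are not separate evidence.

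Within a plate, cells can be compared without a difference of plate. Among ungated wild-type cells 28 held Gpnmb or Clec7a RNA after thinning and 50 did not, and among those of the knockout 16 did and 74 did not. C3ar1 was higher in the cells with this RNA by 0.34 (485 against 382 CPM) in wild-type and 0.02 (439 against 432 CPM) in knockout plates, less than between the gates. By median it was 368.9 against 84.8 CPM and 291 against 18.1 CPM. The C1q genes differed by 0.11 or less in size. C5ar1 was higher in the cells with this RNA, by 0.17 (183 against 163 CPM) and 0.86 (348 against 192 CPM), whereas the differences of Itgam were -0.05 and -0.58. Those of Itgb2 were -0.66 (237 against 374 CPM) and -0.41 (213 against 283.5 CPM). Its medians went the other way, at 136.6 against 56.8 CPM and 13.5 against 0 CPM. Cells with the gate RNA had more detected genes (medians 4254.5 against 2289.5, and 3596 against 2009.5), and the part of this in the C3ar1 medians was not tested.

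In the gated wild-type plate 77 cells held the gate RNA and 13 did not. The 13 cells had more C1q (log2 of cells with against cells without -0.34 for C1qa, -0.23 for C1qb and -0.33 for C1qc), more Itgam (-0.93; 295 against 564.5 CPM) and more C5ar1 (-1.83; 92.7 against 332.5 CPM). They had less Itgb2 (0.77; 334 against 195 CPM), and C3ar1 was level between the 13 and the 77 cells (-0.06). The direction for Itgam was the same in the ungated plates, and those for C5ar1 and for summed Itgb2 were the opposite. C1qa and C1qb were slightly higher there in cells with the gate RNA. The 13 cells also had fewer detected genes (median 1910 against 3367), and the part of this in these values was not tested. Of the gated knockout cells 1 lacked it, so no such comparison was made there.

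Of 60 other complement genes listed, 59 were matched, 24 were measured, 12 lay below 5 CPM and 23 had 0 counts in all groups. By the 2-fold rule 8 of the 24 were higher and 1 lower with the gate in wild-type cells (median 0.36). Of all measured genes 15.2% were higher and 19.9% lower there. In knockout cells 11 were higher and 3 lower (median 0.40), beside 12.4% and 22% of all genes. A gene could enter the 24 through gated cells alone, as C1ra did (0.85, 13.5, 0 and 2.08 CPM). The gate counts and medians are thus in part set by the measuring level, which was also applied to all genes. Between genotypes 3 were higher and 6 lower in ungated cells, and 3 higher and 4 lower in gated cells (medians 0.07 and 0.08). Of all genes 29.8% and 23.5% passed in either direction, so these genotype counts are not read as particular to the list. Many of these lay near the measuring level: C1ra, C1rl, C4b, Cfb, Cfp, C8g, Clu, Cd59a, Itgal and Cmklr1 did not exceed 34.2 CPM in any group.

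**Figure D4:**
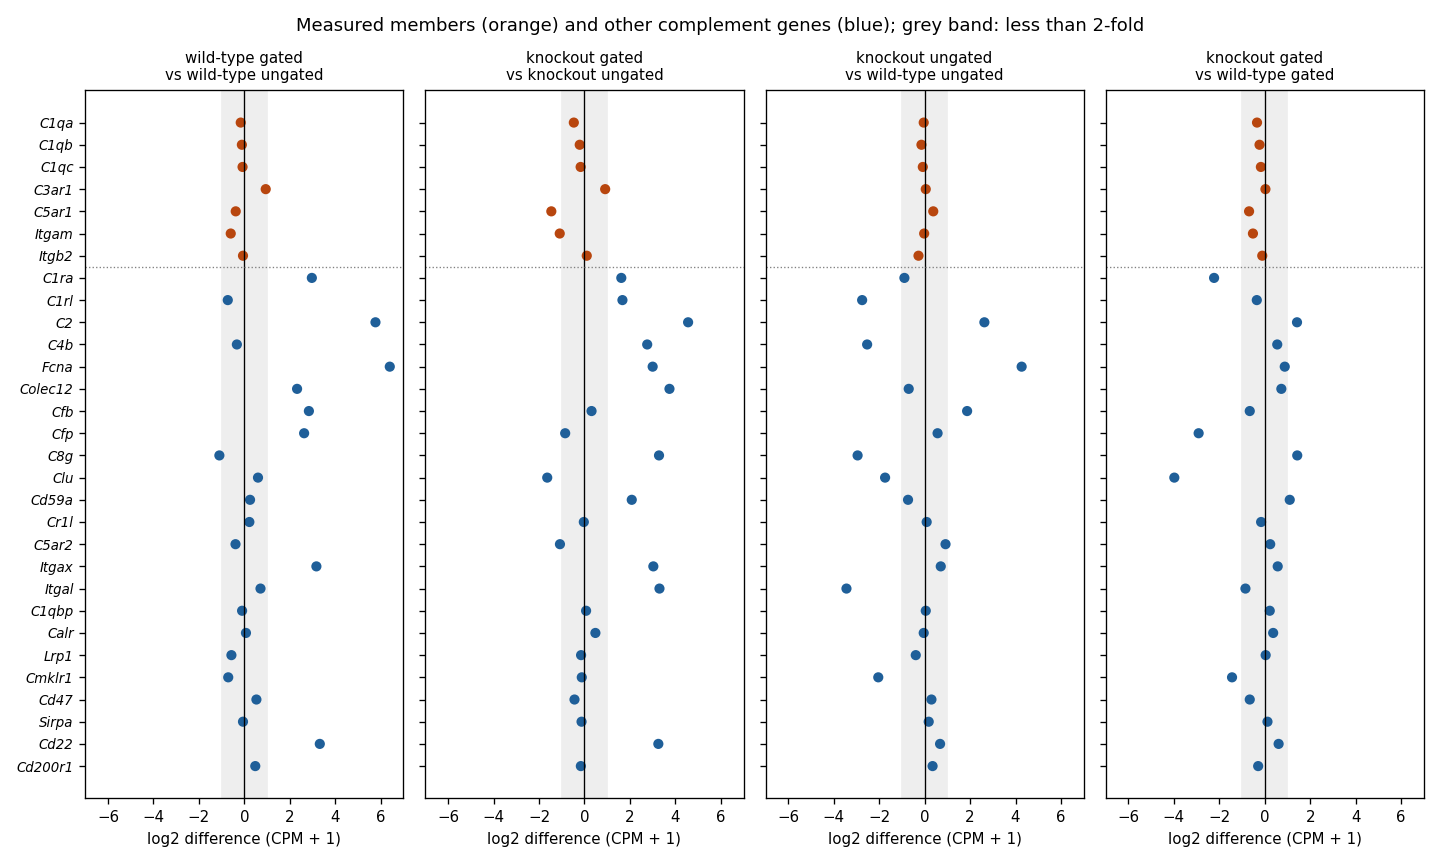
Log2 difference of CPM + 1 for the 7 measured members (orange) and 23 of the 24 measured other complement genes (blue) in the 4 comparisons; the grey band marks less than 2-fold. Members lie in or near the band, with C5ar1 (-1.46) and Itgam (-1.09) outside it for the knockout gate, while C1ra, C2, Itgax, Colec12, Fcna and Cd22 lie above it in both gate comparisons.

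C2, the serine protease that joins C4b in the enzyme acting on C3, was found in gated cells and in 1 ungated cell. In the wild type it had 0 counts in ungated cells and was at 53.7 CPM in gated cells, 23 of which held it. No fold is given, since the 1 ungated knockout cell with C2 alone held 296 counts. In the knockout it was at 5.20 CPM in ungated cells, all of it in that 1 cell, and at 145 CPM in gated cells (27.9-fold). Single cells reached 0, 755, 374 and 1405 CPM, with medians of 0, 0, 0 and 20.3 CPM. After thinning it was detected in 0%, 16.7%, 1.11% and 57.9% of cells, and in 0%, 25.6%, 1.11% and 63.2% without. Gated cells of the knockout exceeded those of the wild type by 1.42 (2.70-fold). Without cells holding 3 or more border-associated macrophage markers, C2 was at 32.1 CPM in 57 gated wild-type cells and 53 CPM in 20 gated knockout cells, with 14% and 40.0% detected, and at 0 in both ungated groups. Every cell with C2 also had C3ar1, namely 15 gated wild-type, 1 ungated knockout and 44 gated knockout cells after thinning, where C3ar1 was detected in 91.1% and 97.4% of all gated cells. C2 overlaps the readthrough gene Gm20547, which also spans Cfb, so its counts are uncertain where reads were shared.

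Of the other starters of the classical pathway, C1ra was at 13.5 CPM in gated wild-type cells and 2.08 CPM or less elsewhere, C4b was at 0.91 to 11.9 CPM, and C1s had no counts. C1ra and C4b have near-identical copies, C1rb and C4a, so their values are uncertain. The lectin pathway genes Fcna, a ficolin, and Colec12, a membrane collectin, were higher in gated cells of both genotypes. Fcna was at 0.18, 98.5, 21.8 and 182 CPM, 79% of the last from 1 cell. Colec12 was at 14.4 CPM, 76 CPM, 8.51 CPM and 126 CPM, with 14.1%, 24.4%, 2.22% and 61.8% of thinned cells. Without cells with border-associated macrophage markers it was at 12.4, 86.2, 0 and 64 CPM, and Fcna at 0.21, 35.7, 8.80 and 32.2 CPM.

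Among the regulators, Cr1l, the mouse membrane regulator also called Crry, was level at 80.5, 94.2, 85.8 and 83.9 CPM. Serping1, Cd55, Cfi and C4bp had no counts, and 6 of 7 terminal pathway genes, Hc (which encodes C5) among them, had none.

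Among other receptors, Itgax, the alpha chain that pairs with Itgb2 in complement receptor 4, was higher in gated cells. It was at 21.0 CPM, 197 CPM, 35 CPM and 294 CPM, differences of 3.17 and 3.03 for the gate. It was detected in 14.1%, 53.3%, 8.89% and 75% of thinned cells. Itgam, its neighbour on chromosome 7, went the other way, and the common chain Itgb2 stayed level. Without border-associated macrophage marker cells the Itgax gate differences were 3.55 and 2.75. Vsig4, the complement receptor of tissue macrophages, had no counts in any group.

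Of the binding partners of C1q and the signals against engulfment, Cd22 passed 2-fold with the gate and the others named here stayed below it in every comparison. Calr, which presents C1q-tagged cells to the receptor Lrp1, was at 423, 446, 410.4 and 574 CPM, and Lrp1 at 647, 437, 495 and 448 CPM. Sirpa, the inhibitory receptor for the signal Cd47, was at 2037, 1949, 2315 and 2114 CPM, with differences of 0.18 or less in size. Cd47 itself was at 147, 213, 182 and 134 CPM. Cd22, an inhibitory sialic acid receptor, was at 3.93, 48.2, 6.91 and 74.3 CPM and 3.32 and 3.25 higher in gated cells. Without border-associated macrophage marker cells these differences were 3.30 and 1.28, the second from 15.4 CPM in 20 gated cells against 5.75 CPM. It was seen in 7.69%, 21.1%, 3.33% and 43.4% of thinned cells, so most microglia had none at this depth.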

How the data were processed

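Single microglia were profiled with Smart-seq2. The authors deposited unnormalized read counts of every gene in every cell, made with STAR 2.5.3a on mm10 and HTSeq, with Trim Galore 0.4.3 and Picard also named, per the submitters' processing notes. The annotation and the strand setting were not given in the sources used here. Column sums equalled the totals in the labels for all 369 cells, and 92 spike-in RNAs (3.56% of counts) stayed out of library sizes. Cells passing all 3 quality criteria of the labels were kept (12, 3, 3 and 17 left out). No doublets were called.

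Gene counts were summed per group and scaled to CPM with Poisson intervals. A level of at least 5 CPM in 1 group made a gene measured (10554 genes). It was counted as past the size rule, which is no test, where CPM + 1 differed at least 2-fold and the mean of the cells' CPM differed the same way. Shares of cells used thinning to 100000 gene counts, with Clopper-Pearson intervals. No model was fitted. Named were the 8 members, the other complement genes at the measuring level, and the genes most alike over cells (5 for C1q, 3 for each other member, among genes detected in 50% of thinned cells). Members and lists were chosen with earlier results of these data known. Gene positions and exon lengths came from GENCODE M21 (mm10), matched by symbol. Alternatives were other scalings (edgeR 4.0.16 TMM factors, median-of-ratios size factors, spike-ins), means or medians over cells, other pseudocounts, filters and sets of cells. Leaving out the 4 cells that lack a C1q chain, and shares in cells of 2000 to 4000 detected genes or without border-associated macrophage marker cells, were added after seeing the data. The scripts were tested on simulated data and run with Python 3.11.15, pandas 2.3.3 and scipy 1.17.1. Lists of other cell types (monocytes, neutrophils, lymphocytes, astrocytes, oligodendrocyte lineage, neurons, endothelium, fibroblasts and pericytes, red blood cells) summed to at most 68.6 CPM in any group. The values of 1 measured complement gene are not reported here; it remains in the counts over the list.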

Additional observations from a re-analysis of the deposited data

Results flagged for a closer look

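These results are listed because a difference pointed in opposite directions in the wild type and the knockout, or in ungated and gated cells, with 0.3 (log2) or more on each side. None of these differences was tested, since each group is 1 sample. For C5ar1 the genotype difference was 0.38 in ungated and -0.69 in gated cells, which differ by -1.08. The first was -0.27 in cells with 2000 to 4000 detected genes and also below 0 with spike-in scaling, so that both then pointed the same way. Cd47 had a gate difference of 0.53 in wild-type and -0.44 in knockout cells, and the difference of -0.97 between them holds for the genotype contrast as well. The knockout gate difference was 0.02 in cells with 2000 to 4000 detected genes and 0.89 with spike-in scaling, so the opposite directions were lost there.

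C1rl had a gate difference of -0.73 in wild-type and 1.67 in knockout cells, 2.40 apart. C4b was 3.08 apart for both contrasts, C8g 4.38, and Cfp -3.48. Clu was -2.24 apart for the gate (0.60 and -1.64). For the genotype, Colec12 was 1.42 apart (-0.70 in ungated and 0.73 in gated cells), Cfb -2.54 (1.87 and -0.66) and Cd59a 1.83, lower in ungated and higher in gated knockout cells. In some groups all counts came from 1 cell: C4b in ungated wild-type cells, Cfp in all groups but the gated wild type, C8g in gated wild-type cells and Cd59a in ungated knockout cells. C8g had 0 counts in ungated knockout cells. Without the cell with the most counts of each group the C4b gate difference in wild-type cells was 2.67, the direction of the knockout. For Clu 1 cell gave at least 77.4% of the counts in every group, and its knockout gate difference was then -0.07. The Cfb genotype difference in ungated cells was then 0.00. Without border-associated macrophage marker cells the Colec12 genotype differences were -3.74 and -0.42. By mean CPM per cell the C1rl gate difference in wild-type cells was -0.08.

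The 35 cells that failed a quality criterion entered no comparison. C1qb had a count in 26 of them, 74.3%, at a median of 36596 gene counts per cell, and C3 in 0.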

How the results depend on the processing

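Each group is 1 plate, so nothing here separates plate from genotype and gate, leaving out a replicate was not possible, and sums over cells rest on few cells for C5ar1 and the low genes. No paired analysis was possible because each group is 1 sample and no replicate numbers are shared. Of 208 alternative counts of genes past 2-fold, 159 stayed within 1.5 times the main count and 49 did not; the cause was not tested. The C3ar1 gate difference stayed above 0 in 12 of 12 alternatives in each genotype (0.81 to 1.99 and 0.38 to 3.62). Both called member differences turned under 1 alternative each: C5ar1 for the knockout gate was 3.04 with median CPM per cell, and Itgam was 0.24 with spike-in scaling.

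Members with the wild-type gate: 1 was higher, in place of 0, with median CPM per cell, TMM factors, median-of-ratios size factors, spike-in scaling, without the cell with the most counts and with no filter on level. Members with the knockout gate: 1 was higher with median CPM per cell, TMM factors and median-of-ratios size factors and 4 with spike-in scaling, in place of 0. With spike-in scaling the median of all genes was itself 0.99 (log2) for this gate, so this count is no result about the members. Shares of all genes under the alternatives are not set beside the counts given here and below. These counts show how far the main counts depend on the setting. None is read as particular to the members or to the list. Of these members 0 were lower with median CPM per cell, spike-in scaling and in cells with 2000 to 4000 detected genes, and 1 with TMM factors, median-of-ratios size factors and without border-associated macrophage marker cells, in place of 2. Between genotypes, 2 members were lower in ungated cells with median CPM per cell, and 1 in gated cells without border-associated macrophage marker cells or with no filter, in place of 0.

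Other complement genes with the wild-type gate: 3 were higher with median CPM per cell, in place of 8. In place of 1, 0 were lower with mean or median CPM per cell, TMM factors, median-of-ratios size factors, spike-in scaling, without the cell with the most counts and with a pseudocount of 10 CPM, and 2 with no filter. With the knockout gate, 3 were higher with median CPM per cell, 18 with spike-in scaling and 6 with a pseudocount of 10 CPM, in place of 11. The median of all genes with spike-in scaling was 0.99 here too. In place of 3, 1 was lower with median CPM per cell, TMM factors, median-of-ratios size factors and a pseudocount of 10 CPM, 0 with spike-in scaling and 5 with no filter. For the genotype in ungated cells, 0 were higher with median CPM per cell, 1 in cells with 2000 to 4000 detected genes and with a pseudocount of 10 CPM, and 5 with no filter, in place of 3. In place of 6, 0 were lower with median CPM per cell and 3 with a pseudocount of 10 CPM. For the genotype in gated cells, 5 were higher with median CPM per cell and 1 without border-associated macrophage marker cells and with a pseudocount of 10 CPM, in place of 3. In place of 4, 0 were lower with median CPM per cell, 7 without border-associated macrophage marker cells and 2 with a pseudocount of 10 CPM.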
